A study of Mus musculus with 4 samples.

Results

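The collagens and laminins are the 55 genes, of 50600 in the count table, whose symbols name a collagen α chain (44 genes) or a laminin α, β or γ chain (11 genes). They were picked by symbol alone. Of these, 45 had at least 10 counts over all 4 libraries, and 37 passed the filter on low counts and entered the test. RNA was taken from primary cells of the colonic epithelium. The C57BL/6 mice were either Mettl14 knockout (KO, 2 libraries) or Mettl14 wild type (WT, 2 libraries). Mettl14 is part of the complex that places N6-methyladenosine on mRNA. The labels do not say how the gene was deleted or how the cells were isolated. They state no age, and all 4 titles carry the code 2W, whose meaning is not explained. Levels below are CPM (counts scaled to the library total) after correction by trimmed mean of M-values (TMM). Fold changes are log2, KO over WT, from edgeR's quasi-likelihood test with Benjamini-Hochberg adjustment over all 14861 genes tested, and a gene was called at an adjusted p under 0.05.

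Collagens and laminins are the main structural proteins of the extracellular matrix, and both are assembled from 3 chains. Interstitial collagens, of which types I and III are the most abundant, are made by fibroblasts of the lamina propria and submucosa. Gut epithelium rests on a basement membrane, a thin sheet of laminin and type IV collagen to which both the epithelium and the mesenchyme contribute. Epithelial cells themselves make the laminin chains Lama3, Lamb3 and Lama5, and in stratified epithelia also the anchoring collagens Col17a1 and Col7a1. In an epithelial preparation the interstitial chains are therefore read here beside the epithelial basement membrane chains, library by library.

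Mettl14 itself, the check of the labels, had 3.99 and 3.94 CPM in the KO libraries, against 11.7 and 8.67 CPM in the WT libraries, a log2 fold change of -1.36 (SE 0.22, edgeR adjusted p = 0.0504). Library totals ran from 22136440 to 24991060 counts, and members took 0.0864% to 0.168% of them. Xist and Y-linked genes split both groups: KO replicate 1 and WT replicate 2 were female, KO replicate 2 and WT replicate 1 male. All 8 epithelial markers on the list (Epcam and Krt8 among them) were detected, with a summed level of 6614 and 5947 CPM in KO, against 6998 and 8866 CPM in WT. KO replicate 2 stood apart from the other 3 libraries in interstitial collagens and in haemoglobin transcripts, which took 0.739% of its counts and 0.132% to 0.256% of the others. Its part in the main results is given by leaving it out.

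Among the 37 tested chains, 0 were called higher and 1, Lama3, was called lower in KO. Over all genes tested, 1.72% were called higher and 1.9% lower. At an unadjusted p under 0.05, 6 members were higher (Col20a1, Col5a2, Col5a3, Col27a1, Lamb2 and Col17a1) and 2 were lower (Lama3 and Col7a1), beside 14.8% and 15.7% of all genes. In 10 members both KO libraries lay above both WT libraries and in 4 both lay below, against 31.1% and 32.2% of all genes. The counts of higher and of called members are near these background shares and say nothing particular about the members. The members' fold changes were positive in 29 and negative in 8 chains, with a median of 1.04 on the log2 scale, beside -0.01 for all genes. The KO libraries parted here: the members' median log2 ratio was -0.25 for KO replicate 1 over WT replicate 2. For KO replicate 2 over WT replicate 1 it was 1.86. In bulk RNA, fewer cells of a type and less RNA per cell cannot be told apart.

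**Figure D1:**
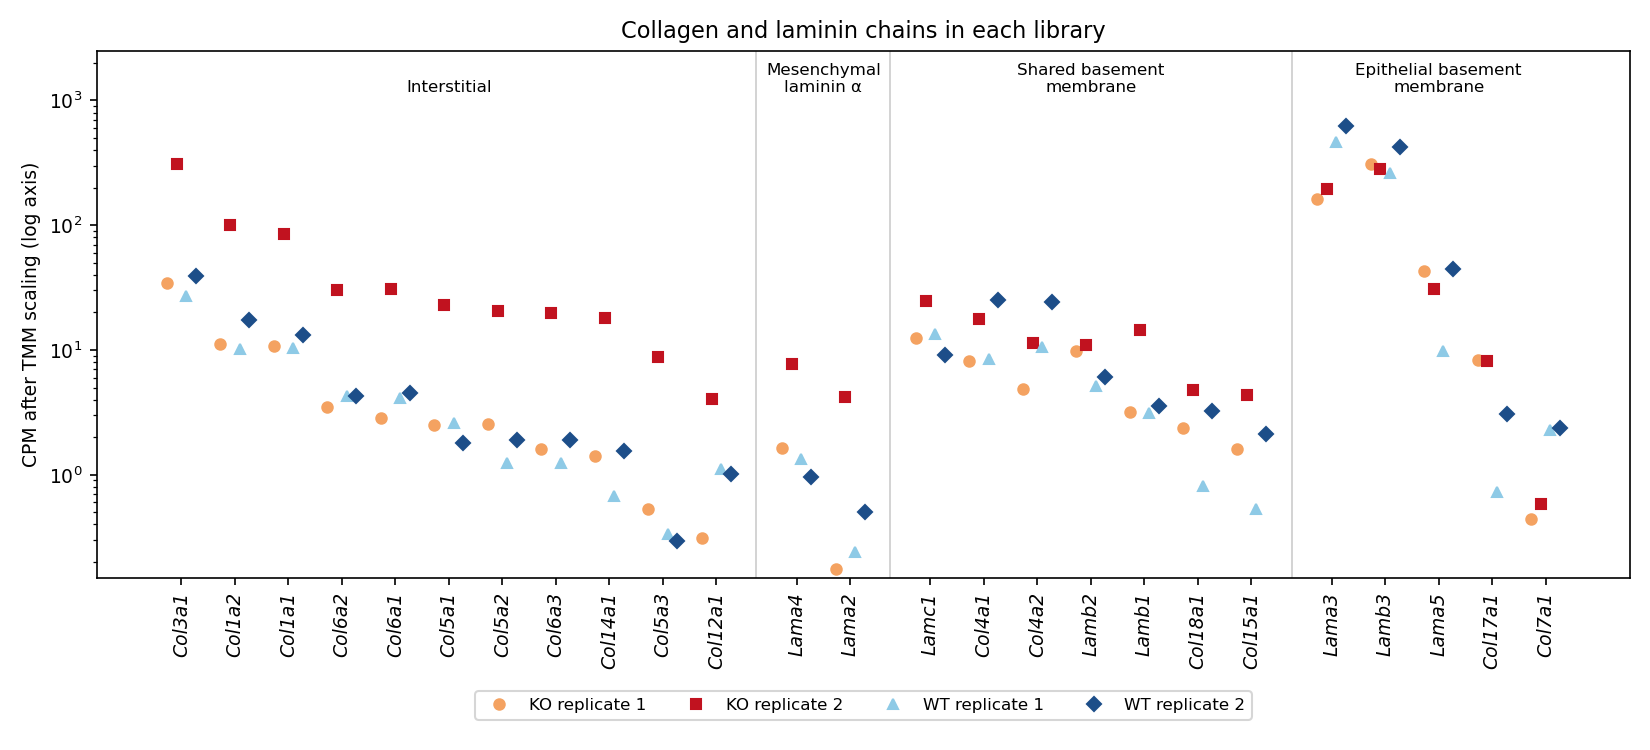
Level of each interstitial, mesenchymal laminin α, shared and epithelial basement membrane chain in each of the 4 libraries (1 point per library, CPM after TMM scaling, log axis). All 11 interstitial chains are highest in KO replicate 2 (red squares), while the epithelial basement membrane chains of KO replicate 2 lie near those of KO replicate 1.

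All 11 interstitial chains were far higher in KO replicate 2 than in KO replicate 1. Col3a1, the single chain of type III collagen, had 34.2 and 308 CPM in KO replicates 1 and 2, against 27.2 and 38.9 CPM in the WT libraries. Col1a2 had 11.2 and 99.6 CPM in KO and 10.2 and 17.3 CPM in WT. Its partner in type I collagen, Col1a1, had 10.8 and 84.7 CPM in KO and 10.4 and 13.3 CPM in WT. In all 3 genes KO replicate 1 lay within the WT range and KO replicate 2 far above it. The log2 fold changes were 2.37 for Col3a1 (SE 1.04, edgeR adjusted p = 0.206), 2.01 for Col1a2 (SE 1.04, adjusted p = 0.262) and 2.02 for Col1a1 (SE 0.97, adjusted p = 0.236). None of them passed the threshold. Without KO replicate 2 they became 0.07 for Col3a1, -0.28 for Col1a2 and -0.11 for Col1a1.

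The promoter sequences of 2 interstitial and 2 epithelial chains are shown because these groups part in KO replicate 2. They are the 150 bases before the RefSeq start (build GRCm38.p6), 5′ to 3′ on the gene's strand, with matches to TATAAA or CCAAT on either strand in capitals. Col3a1 (chr1:45311388-45311537, plus strand) and Col6a3 (chr1:90843972-90844121, minus strand) are interstitial. Lamb3 (chr1:193301844-193301993, plus strand, the more upstream of 2 listed starts) and Lama5 (chr2:180225860-180226009, minus strand) are epithelial.
Col3a1: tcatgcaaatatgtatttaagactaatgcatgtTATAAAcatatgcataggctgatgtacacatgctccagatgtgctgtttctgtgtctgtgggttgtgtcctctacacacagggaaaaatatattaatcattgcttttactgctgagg
Col6a3: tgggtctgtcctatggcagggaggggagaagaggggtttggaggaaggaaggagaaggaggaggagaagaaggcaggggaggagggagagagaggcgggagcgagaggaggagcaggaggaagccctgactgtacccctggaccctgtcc
Lamb3: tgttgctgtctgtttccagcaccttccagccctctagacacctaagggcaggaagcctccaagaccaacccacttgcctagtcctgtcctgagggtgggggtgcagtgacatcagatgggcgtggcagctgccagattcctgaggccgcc
Lama5: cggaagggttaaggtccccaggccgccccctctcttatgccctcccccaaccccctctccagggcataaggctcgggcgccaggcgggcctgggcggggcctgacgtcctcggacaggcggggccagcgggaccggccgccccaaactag
The Col3a1 window holds 1 TATAAA, in its upstream part, and the other 3 windows hold neither motif. Of all 32851 windows of this length, 7.57% hold TATAAA and 24.5% hold CCAAT. Windows were listed for 40 of the 55 members, and 8 of their 44 windows hold CCAAT and 4 hold TATAAA.

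The chains that join type I and III fibrils followed the same pattern. Col5a1, whose product regulates fibril diameter, had 2.48 and 22.8 CPM in KO and 2.60 and 1.81 CPM in WT. Col5a2, its usual partner, had 2.57 and 20.5 CPM in KO, against 1.25 and 1.89 CPM in WT. The minor chain Col5a3 had 0.53 and 8.73 CPM in KO and 0.34 and 0.29 CPM in WT. Of the 11 interstitial chains, only Col5a2 and Col5a3 had both KO libraries above both WT libraries, beside 31.1% of all genes. For both chains the margin was small in KO replicate 1. Their log2 fold changes were 2.87 (SE 1.05, edgeR adjusted p = 0.155) for Col5a2 and 3.86 (SE 1.43, adjusted p = 0.159) for Col5a3. Without KO replicate 2 they were 0.72 for Col5a2 and 0.76 for Col5a3.

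Type VI collagen forms beaded filaments around stromal cells. Its chain Col6a1 had 2.84 and 30.9 CPM in KO and 4.10 and 4.50 CPM in WT. Col6a2 had 3.50 and 30.3 CPM in KO, against 4.29 and 4.25 CPM in WT. Col6a3 had 1.60 and 19.8 CPM in KO and 1.25 and 1.89 CPM in WT. None of the 3 separated the genotypes, since KO replicate 1 lay below both WT libraries for Col6a1 and Col6a2 and between them for Col6a3. Adjusted p from edgeR was 0.206 for Col6a3, 0.254 for Col6a2 and 0.286 for Col6a1. Col6a6, a further type VI chain, had 3 and 81 counts in KO and 0 and 1 in WT and was not tested.

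Col14a1 and Col12a1 belong to the collagens that coat fibrils and link them to other matrix. Col14a1 had 1.42 and 18.2 CPM in KO and 0.67 and 1.56 CPM in WT. Col12a1 had 0.31 and 4.01 CPM in KO, against 1.11 and 1.01 CPM in WT, so that its lowest and its highest level were both in KO libraries. Of the laminin α chains made by mesenchyme and muscle, Lama2 had 0.18 and 4.21 CPM in KO and 0.24 and 0.51 CPM in WT. Lama4, a chain of vessels and mesenchyme, had 1.64 and 7.72 CPM in KO, against 1.35 and 0.97 CPM in WT. The log2 fold changes were 3.12 for Col14a1 (SE 1.29, edgeR adjusted p = 0.188), 1.04 for Col12a1 (SE 1.12, adjusted p = 0.567), 2.53 for Lama2 (SE 1.44, adjusted p = 0.298) and 2.02 for Lama4 (SE 0.81, adjusted p = 0.181).

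Taken over the list of 11, interstitial chains summed to 71.4 and 648 CPM in KO, against 63.3 and 86.7 CPM in WT. All 11 were tested, 0 were called, all 11 had a positive fold change, and the median was 2.37 on the log2 scale. Without KO replicate 2 the median was 0.03 with 6 of 11 positive, and without KO replicate 1 it was 3.21 with all 11 positive. Within females (KO replicate 1 over WT replicate 2) the median log2 ratio was -0.25, and within males (KO replicate 2 over WT replicate 1) it was 3.29. With 1 library of each sex per genotype, sex and library cannot be told apart within a genotype. The ratio of KO replicate 2 to KO replicate 1 lay between 7.86 (Col1a1) and 16.4 (Col5a3) for the 11 chains, with a median of 9.17. For Col3a1 it was 9.02, with an exact 95% counting interval of 8.38 to 9.73, and the interval covers counting error only. Among members with a mean of at least 1 CPM the ratio was highest for Lama2 (23.7, interval 9.005 to 88.7), Col5a3 (16.4) and Col12a1 (12.9). Low ratios were those of Lama5 (0.72) and Lamb3 (0.90). Over all genes tested the median of this ratio was 1.002, and 1.02% of them reached 5, among them 14 members and all 11 interstitial chains.

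**Figure D2:**
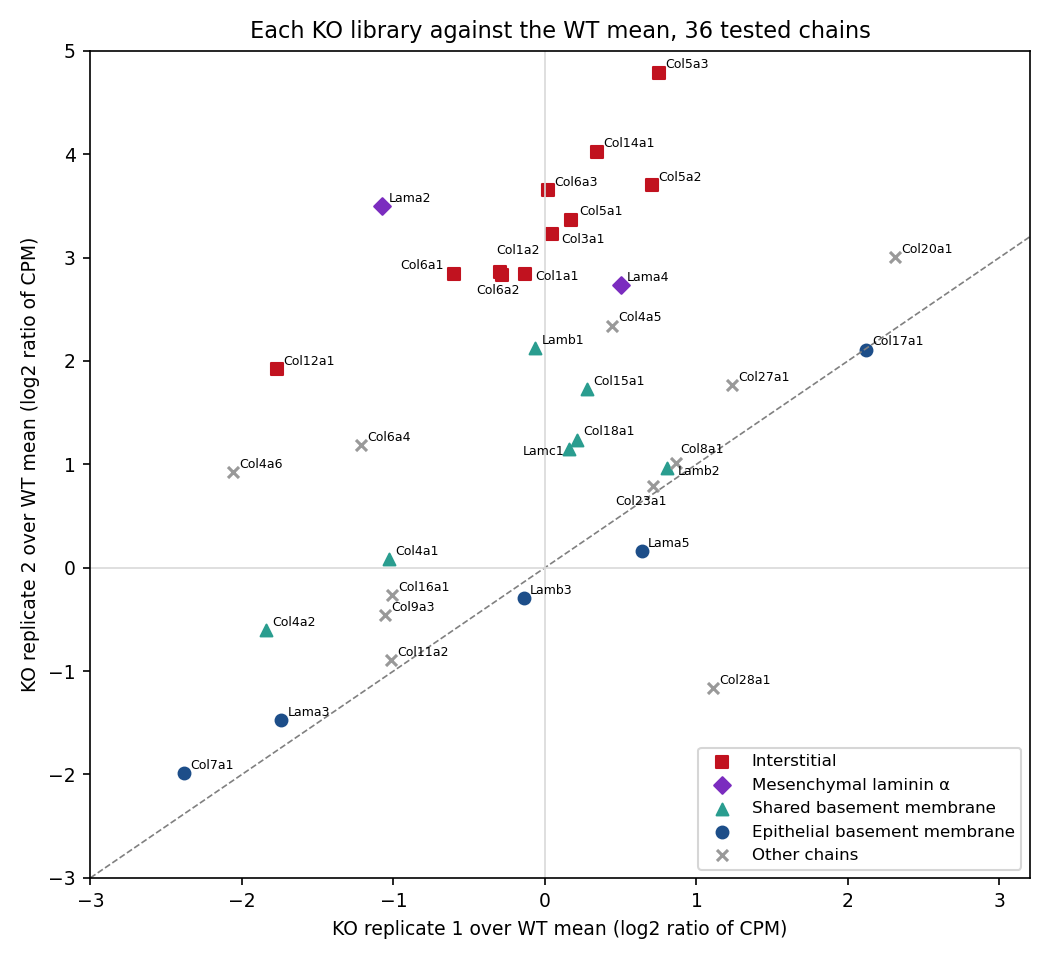
Log2 ratio of KO replicate 2 (vertical) and of KO replicate 1 (horizontal) to the WT mean for 36 of the 37 tested chains. The dashed line marks equal ratios: interstitial chains (red squares) lie far above it, epithelial basement membrane chains (blue circles) lie near it, with Lama3 and Col7a1 at the lower left and Col17a1 at the upper right.

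The proportions between some partner chains overlapped between the genotypes, and others did not. Per kb of exon, Col1a1 stood to Col1a2 at 1.82 and 1.61 in KO and at 1.93 and 1.45 in WT. The ratio of Col6a1 to Col6a2 per kb was 1.54 and 1.94 in KO, against 1.82 and 2.01 in WT. For Col5a1 to Col5a2 it was 1.09 and 1.25 in KO and 2.35 and 1.08 in WT. For these 3 pairs the KO values overlapped the WT values. Within type VI, Col6a3 stood to Col6a2 at 0.317 and 0.455 in KO, against 0.203 and 0.310 in WT. Both KO values lay above both WT values, but KO replicate 1 and WT replicate 2 barely differed. Their ratios rest on 36 and 45 counts of Col6a3.

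Other stromal transcripts moved with these chains in part. The 10 fibroblast markers, all detected, summed to 84.6 and 226 CPM in KO, against 53.9 and 67.8 CPM in WT. The matrix proteins among them were high in KO replicate 2: Dcn had 6.87 and 53.0 CPM in KO and 2.41 and 4.21 CPM in WT, and Sparc had 10.5 and 64.1 CPM in KO and 11.5 and 16.0 CPM in WT. Vim, an intermediate filament of mesenchymal cells, had 37.5 and 45.1 CPM in KO and 25.3 and 29.8 CPM in WT. Thy1 had 11.2 and 6.39 CPM in KO and 5.49 and 6.82 CPM in WT, and Pdgfrb had 10.2 and 9.98 CPM in KO and 2.89 and 4.25 CPM in WT, so neither was highest in KO replicate 2. Thy1 and Pdgfrb were picked after their values were seen. Smooth muscle markers (8 of 8 detected) summed to 15.6 and 34.8 CPM in KO and 12.1 and 17.1 CPM in WT. Endothelial markers summed to 15.2 and 15.8 CPM in KO and 6.50 and 9.60 CPM in WT, with Emcn at 0 in 3 of the 4 libraries. Glial and neuronal markers summed to 1.60 and 2.10 CPM in KO and 0.82 and 0.97 CPM in WT, with Sox10 at 0 in 3 of the 4 libraries. Erythroid genes summed to 1353 and 6681 CPM in KO, against 1976 and 2736 CPM in WT. Macrophage markers summed to 129 and 126 CPM in KO and 51.7 and 59.4 CPM in WT, and 3 of 8 (Itgam, Cx3cr1 and C1qa) were called higher by edgeR, beside 1.72% of all genes. The part of any of these cells in the collagen levels was not tested.

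**Figure D3:**
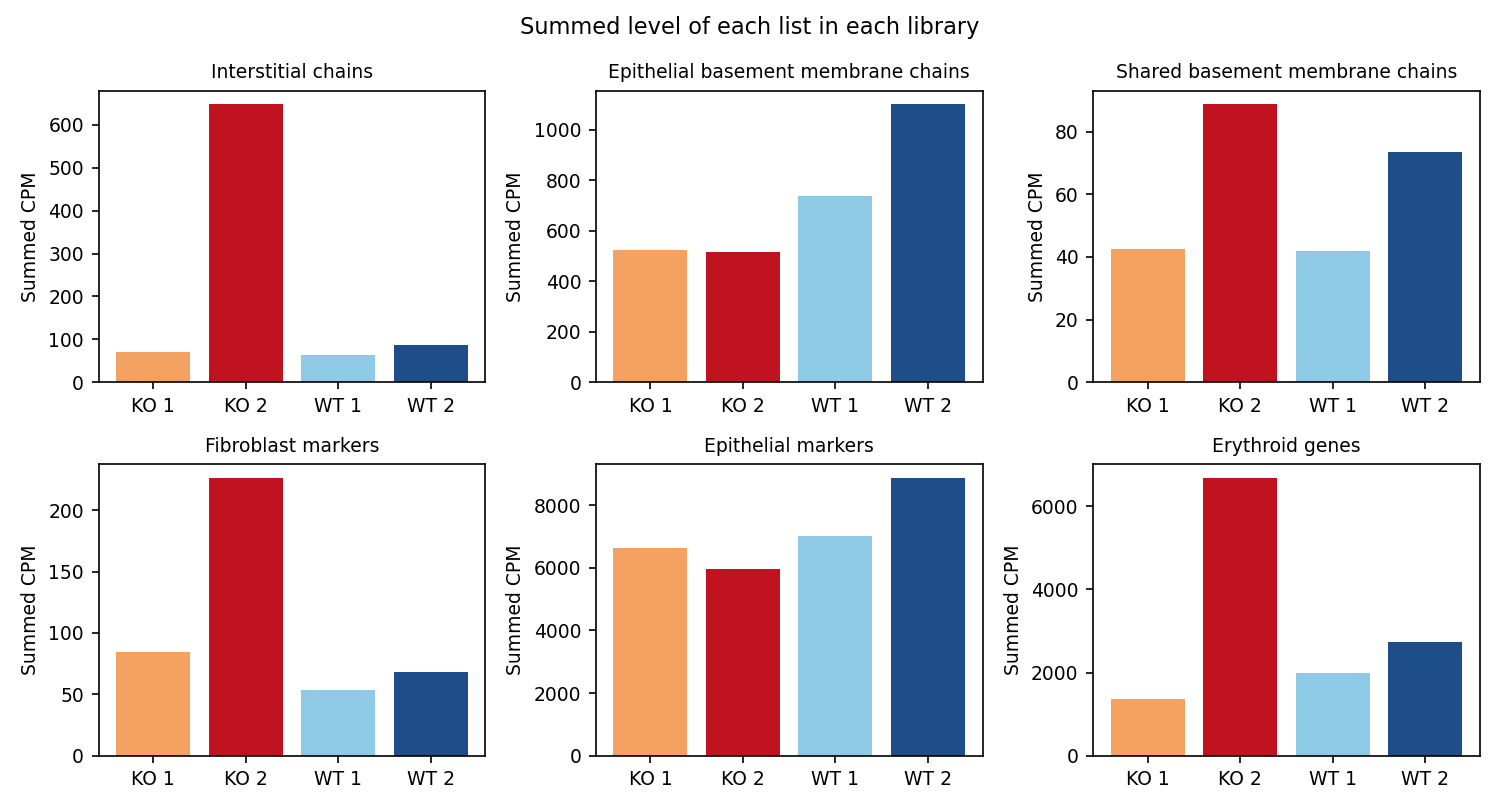
Summed CPM of 3 lists of chains and 3 lists of markers in each library (1 bar per library, each panel with its own axis from 0). KO replicate 2 has 648 CPM of interstitial chains and 6681 CPM of erythroid genes, above the other 3 libraries, whereas its epithelial basement membrane chains (516 CPM) are near those of KO replicate 1 (525 CPM).

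Epithelial basement membrane chains did not share that split. The 5 chains on this list (Lama3, Lamb3, Lama5, Col17a1 and Col7a1) summed to 525 and 516 CPM in KO, against 738 and 1100.4 CPM in WT. The KO sums thus differed from each other by less than the WT sums did. Lama3 and Lamb3 made up most of the sum in every library. Of these, only Lama3 had both KO libraries below both WT libraries. Of the 5, 1 was called lower and 0 higher, 2 had positive and 3 negative fold changes, and the median was -0.21. Without WT replicate 2 the median was 0.21. A wider list, with Lamb1, Lamb2, Lamc1, Col4a5 and Col4a6 added, had a median of 0.58 with 7 of 10 positive. The sign of the median thus depends on which chains are counted as epithelial, and also on the libraries compared. For KO replicate 1 over WT replicate 2 the median log2 ratio was -0.45 for the 5 chains and -0.11 for the wider list. For KO replicate 2 over WT replicate 1 it was 0.10 and 0.99. Per kb of exon, Lamb3 and Lama3 had high mean levels, 48.3 and 33.7 CPM per kb, against 10.4 CPM per kb for Col3a1.

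Lama3, a laminin α chain of epithelia, fell in KO. It had 163 and 196 CPM in KO, against 463 and 627 CPM in WT, with at least 3676 counts in each library. Both KO libraries lay below both WT libraries. The log2 fold change was -1.60 (SE 0.21, edgeR adjusted p = 0.0443). It was -1.94 within females and -1.24 within males. Without KO replicate 1 or without KO replicate 2 it was -1.49 (adjusted p = 0.293) and -1.72 (adjusted p = 0.378), and in those fits edgeR called 0 genes in all. Without WT replicate 1 or WT replicate 2 the log2 fold change was -1.81 and -1.33. Those fits hold 1 WT library, so only the fold change is given. Of the 8 epithelial markers, 5 also had both KO libraries below both WT libraries (32.2% of all genes did), 0 were called by edgeR (3 lower and 0 higher at an unadjusted p under 0.05, beside 15.7% and 14.8% of all genes), and their median log2 fold change was -0.43. The part of the epithelial share in the Lama3 level was not tested. The antisense gene Gm29200 overlaps 197 exonic bases of Lama3 and had 6 and 6 counts in KO and 20 and 26 in WT.

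Lamb3, its β chain partner, was not called. It had 311 and 280 CPM in KO, against 262 and 424 CPM in WT (log2 fold change -0.21, SE 0.26, edgeR adjusted p = 0.611). Its KO libraries lay within the WT range. Counted per kb, Lama3 stood to Lamb3 at 0.323 and 0.431 in KO and at 1.09 and 0.910 in WT. Both KO values lay below both WT values. With 2 libraries against 2, an exact two-sided permutation test of such a ratio cannot go below p = 0.333, and this ratio is given as a value.

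**Figure D4:**
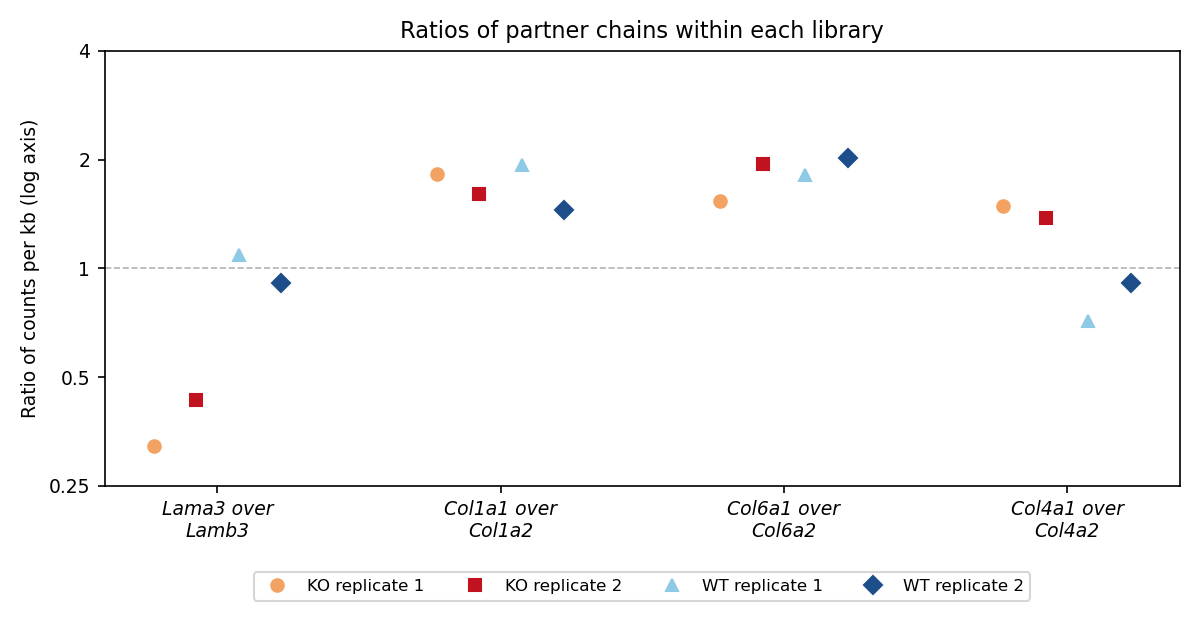
Ratio of counts per kb of exon between partner chains within each library (1 point per library, log axis, dashed line at 1). Lama3 over Lamb3 is 0.323 and 0.431 in KO and 1.09 and 0.910 in WT. Col4a1 over Col4a2 does not overlap either, at 1.49 and 1.38 in KO and 0.716 and 0.910 in WT. Col1a1 over Col1a2 and Col6a1 over Col6a2 overlap between KO and WT.

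The remaining epithelial chains went different ways. Col17a1, a transmembrane collagen of hemidesmosomes, had 8.25 and 8.18 CPM in KO, against 0.72 and 3.07 CPM in WT. Its KO libraries were close together and above both WT libraries, which differed 4.25-fold from each other (log2 fold change 2.10, SE 0.65, edgeR adjusted p = 0.122). Without WT replicate 1 the log2 fold change was 1.41 and without WT replicate 2 it was 3.53. Col7a1, the anchoring fibril collagen, had 10 and 15 counts in KO and 47 and 56 counts in WT, or 0.44 and 0.58 CPM in KO and 2.26 and 2.36 CPM in WT. Both KO values lay below both WT values, and the log2 fold change of -2.15 (SE 0.38) missed the threshold with an edgeR adjusted p of 0.0538. Lama5, an α chain of the adult intestinal basement membrane, had 42.6 and 30.6 CPM in KO, against 9.88 and 44.9 CPM in WT. Its KO libraries lay between the WT libraries, and the log2 fold change was 0.41 (SE 0.71, adjusted p = 0.724). Without WT replicate 2 it was 1.92, and without WT replicate 1 it was -0.31.

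Set against each other, interstitial and epithelial chains gave a ratio in which KO replicate 2 stood apart. Per 100 counts of epithelial basement membrane chains there were 13.6 and 126 interstitial counts in KO, against 8.58 and 7.88 in WT. The interstitial counts of KO replicate 1 (1611) lay within the WT range (1314 to 2060). Epithelial counts, mostly of Lama3 and Lamb3, were 11847 and 13229 in KO, against 15312 and 26149 in WT. The log2 ratio in KO replicate 2 was 3.21 higher than in KO replicate 1. The medians of the log2 fold changes, 2.37 for interstitial and -0.21 for epithelial chains, differed by 2.59, and without KO replicate 2 they differed by 0.16. With the wider epithelial list they differed by 1.80.

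Basement membrane chains made by both compartments had a median between those of these groups only while KO replicate 2 was kept. The 7 chains summed to 42.6 and 88.7 CPM in KO, against 42.0 and 73.6 CPM in WT, with 0 called and a median log2 fold change of 0.81. Without KO replicate 2 the median was 0.18, above the 0.03 of interstitial and the -0.12 of epithelial chains. Col4a1, a chain of the type IV network, had 8.20 and 17.8 CPM in KO and 8.48 and 25.04 CPM in WT (log2 fold change -0.37, SE 0.63, edgeR adjusted p = 0.725). Col4a2, its partner in the same trimer, had 4.88 and 11.5 CPM in KO, against 10.5 and 24.4 CPM in WT (log2 fold change -1.09, SE 0.58, adjusted p = 0.271). For Col4a1 the KO libraries differed 2.17-fold and the WT libraries 2.95-fold, and for Col4a2 the KO libraries differed 2.35-fold and the WT libraries 2.32-fold. Per kb, Col4a1 stood to Col4a2 at 1.49 and 1.38 in KO and at 0.716 and 0.910 in WT. The 2 genes lie head to head and overlap by 22 exonic bases on opposite strands.

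Among the shared laminin chains, Lamb1 had 3.19 and 14.5 CPM in KO and 3.13 and 3.54 CPM in WT, with the excess in KO replicate 2 alone. Lamc1, the γ chain of most laminins, had 12.5 and 24.9 CPM in KO and 13.3 and 9.13 CPM in WT. Lamb2 had 9.84 and 10.95 CPM in KO, against 5.16 and 6.10 CPM in WT, both KO libraries above both WT libraries (log2 fold change 0.88, SE 0.18, edgeR adjusted p = 0.0624). Without WT replicate 2 the log2 fold change of Lamb2 was 1.04, and without WT replicate 1 it was 0.76. Col15a1 and Col18a1, the collagens of basement membrane zones that carry sugar chains, had 1.60 and 4.36 CPM and 2.35 and 4.79 CPM in KO. In WT they had 0.53 and 2.10 CPM and 0.82 and 3.24 CPM. Their KO and WT libraries overlapped.

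Of 29 further members, 11 were tested and 0 called. The most abundant of them was Col20a1, a fibril-associated collagen, with 32.5 and 52.5 CPM in KO, against 3.47 and 9.64 CPM in WT. All KO values lay above all WT values (log2 fold change 2.69, SE 0.54, edgeR adjusted p = 0.0635). Without WT replicate 2 the log2 fold change was 3.65, and without WT replicate 1 it was 2.13. The gene BX649560.1 overlaps 79 exonic bases of Col20a1 on the same strand and had 223 and 364 counts in KO and 92 and 157 in WT. Col16a1, another fibril-associated collagen, had 10.02 and 16.8 CPM in KO and 17.9 and 22.5 CPM in WT (log2 fold change -0.59, SE 0.29, adjusted p = 0.246). Col8a1, a short-chain collagen of vessels and other sheets, had 8.38 and 9.27 CPM in KO, against 6.21 and 2.99 CPM in WT (log2 fold change 0.94, SE 0.38, adjusted p = 0.180). Without WT replicate 1 the log2 fold change of Col8a1 was 1.55. Col27a1, a fibrillar collagen best known from cartilage, had 1.37 and 1.99 CPM in KO and 0.58 and 0.59 CPM in WT (log2 fold change 1.52, SE 0.42, adjusted p = 0.0954).

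The scarcer chains gave little to compare. Col11a2, a fibrillar chain, had 1.51 and 1.64 CPM in KO, against 2.22 and 3.87 CPM in WT (edgeR adjusted p = 0.182). Col4a5, an X-linked type IV chain, had 0.75 and 2.81 CPM in KO and 0.43 and 0.67 CPM in WT (adjusted p = 0.215). Col4a6 (adjusted p = 0.942), Col6a4 (0.751), Col9a3 (0.472), Col23a1 (0.382) and Col28a1 (0.833), each an edgeR adjusted p, had overlapping groups or, for Col23a1, at most 12 counts in any library. Apart from Col6a6, 7 members with at least 10 counts were too low for the test. Col25a1 had 2 and 17 counts in KO and 2 and 5 in WT, and Col6a5 had 1 and 7 in KO and 13 and 5 in WT. Col4a3, Col4a4, Col8a2, Col24a1 and Col26a1 had at most 8 counts in any library. The other 10, namely Col2a1, Col9a1, Col9a2, Col10a1, Col11a1, Col13a1, Col19a1, Col22a1, Lama1 and Lamc3, had fewer than 10 counts over all libraries. A count of 0 allows up to 3 counts, or 0.12 to 0.136 CPM before TMM scaling.

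**Figure D5:**
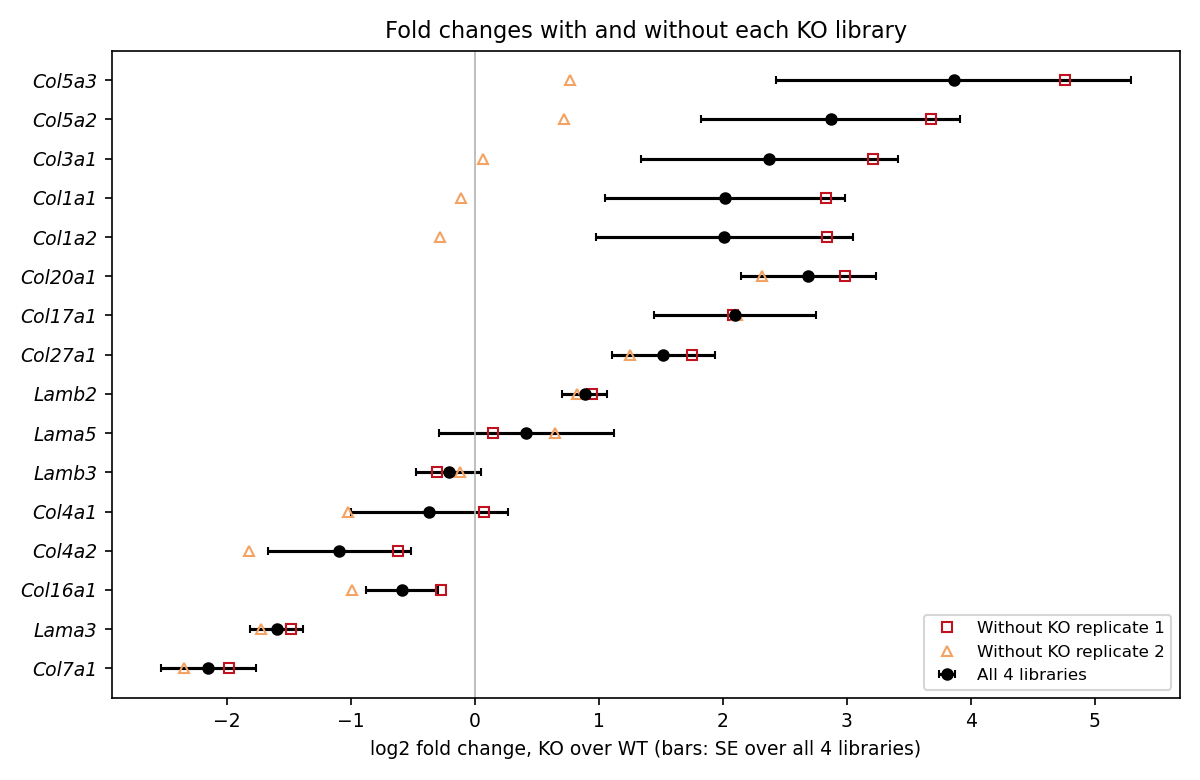
Log2 fold change, KO over WT, of 16 chains with all 4 libraries (black, bars are the SE) and without KO replicate 1 (red squares) or KO replicate 2 (orange triangles). Col3a1, Col1a1 and Col1a2 lie near 0 without KO replicate 2. Col1a1 and Col1a2 change their side of 0 without KO replicate 2, and Col4a1 does so without KO replicate 1. All other chains shown, Lama3, Col7a1, Col17a1 and Lamb2 among them, keep their side either way.

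The enzymes and receptors around these chains gave 0 calls. In collagen biosynthesis (prolyl and lysyl hydroxylases, chaperones, lysyl oxidases), 20 genes were tested, 0 were called by edgeR, 1 was higher and 3 were lower at an unadjusted p under 0.05 (14.8% and 15.7% of all genes were), and the median log2 fold change was 0.38. P4hb, the β subunit of prolyl hydroxylase, had 490 and 405 CPM in KO and 404 and 448 CPM in WT. Ppib, a prolyl isomerase, had 157 and 143 CPM in KO and 114 and 142 CPM in WT. Serpinh1, the collagen chaperone, was picked after its values were seen and had 2.48 and 17.9 CPM in KO, against 2.70 and 2.86 CPM in WT.

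Of 11 tested matrix receptors, 0 were called by edgeR, 7 were higher and 2 lower at an unadjusted p under 0.05, beside 14.8% and 15.7% of all genes, and the median log2 fold change was 0.52. Itgb4, the laminin-binding integrin β chain of hemidesmosomes, had 160 and 147 CPM in KO, against 217 and 255 CPM in WT (log2 fold change -0.62, SE 0.14, adjusted p = 0.0722). Itgb1, the β chain of most matrix integrins, had 210 and 215 CPM in KO and 165 and 164 CPM in WT (log2 fold change 0.37, SE 0.11, adjusted p = 0.115). The groups of both genes did not overlap. Of 8 further basement membrane and hemidesmosome genes, 0 were called by edgeR, 2 were higher and 1 lower at an unadjusted p under 0.05, beside the same background, and the median log2 fold change was 0.12. Plec, which ties hemidesmosomes to keratin, had 422 and 468 CPM in KO, against 529 and 614 CPM in WT (adjusted p = 0.200). Dst, a plakin whose epithelial form sits in hemidesmosomes, had 76.3 and 96.1 CPM in KO, against 174 and 125 CPM in WT (log2 fold change -0.79, SE 0.22, adjusted p = 0.0945).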

How the data were processed

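The deposited table holds raw counts per gene as whole numbers, and its column totals differ between libraries. Oligo-dT beads were used to enrich mRNA, per the labels' protocols. FastQC 0.11.2, STAR 2.4.2a, RSEM 1.2.29 and mm10 are named per the submitters' processing notes, with no role given. The sources used here do not give the annotation, the strandedness or any rounding, so overlapping genes may share reads. Identifiers matched GENCODE M21 (mm10) for 99.56%, which gave exon lengths. Groups came from the genotype label. Replicates were numbered in accession order and pair no libraries. Each title carries a number of its own whose meaning is not stated, and no label ties a library to an animal, so the spread behind each p-value may be partly technical. Members were fitted together with all genes by edgeR 4.0.16 (R 4.3.3): filterByExpr, TMM, quasi-likelihood F-test with legacy and robust options, two-sided, 2 residual degrees of freedom. The SE is the fold change over the square root of F. The fit was also run on simulated counts with the same dispersion for every gene and no library set apart. That run therefore does not cover a library like KO replicate 2. Alternatives used DESeq2 1.42.0, limma-voom (limma 3.58.1), other scalings, filters and a sex covariate, and left out each library. No set test was run. The results of 1 member are not reported here, and it is in none of the lists compared. Members and lists were chosen with earlier results of these data known. Named are every called member, the 4 most abundant of each class, every chain of the interstitial, epithelial, shared and mesenchymal lists, the 3 highest and 3 lowest ratios between KO libraries, the 2 most abundant and called genes of other lists, and the 3 most abundant markers. Other names are given as picked after their values were seen.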

Additional observations from a re-analysis of the deposited data

How the results depend on the processing

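With all 4 libraries kept, 0 members were called higher in the main edgeR fit and 1 (Lamb2) with no filter. The count was 5 with DESeq2 (Col5a3, Col20a1, Col17a1, Col5a2 and Lamb2). Calls over all genes rose as well: 952 of 14861 were higher with DESeq2 and 862 of 24337 with no filter. The main edgeR fit called 255 of 14861 higher. The count called lower, 1, was 2 with DESeq2, with no filter and with a filter of CPM of at least 1 in 2 libraries. It was also 2 with sex as a covariate, and Col7a1 joined Lama3 each time. In each of these fits more of all genes were called lower than in the main fit. The added call of Col7a1 thus came with a general rise in calls. Fits without 1 library hold 1 library in 1 genotype, so their counts of members are left out here. Lama3 was called in 12 of 14 alternatives, with an adjusted p between 4.87e-09 and 0.378 over them. The interstitial median minus the epithelial median, 2.59, was 0.16 without KO replicate 2 and ran from 0.16 to 3.51 over the 4 leave-one-out fits. It was 1.80 with limma-voom and 1.84 with sex as a covariate, 1.80 with the wide epithelial list and 2.23 with the narrow interstitial list of types I and III. The log2 ratio between the KO libraries, 3.21, was 3.06 from mean log2 CPM, and scaling cannot move it by construction. Leaving out 1 library turned the sign of Lamb3 (-0.53 to 0.21), Lama5 (-0.31 to 1.92), Col1a2 (-0.28 to 2.84), Col1a1 (-0.11 to 2.83) and Col4a1 (-1.02 to 0.65). The sign of Col4a1 turned without KO replicate 1 (0.07) and without WT replicate 2 (0.65). For changes under the other settings the cause was not tested. Scaling by library size alone moved the median of all genes by 0.17 (log2), and all 11 interstitial chains stayed positive. No paired analysis was possible because the labels carry no replicate numbers that pair libraries, and sex, read from the data, entered only as the covariate above. With 2 libraries per genotype, a missed threshold does not show equal levels, and depth limits the members with under 10 counts.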

Other observations

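Genes outside the collagen and laminin families were also high in KO replicate 2. Of all genes tested, 49 had at least 5 times the CPM in KO replicate 2 that they had in each of the other 3 libraries. Among them were 11 members, 10 interstitial chains and Lama2. The others were picked out after their values were seen. Fbn1, the microfibril protein fibrillin, had 1.91 and 48.0 CPM in KO, against 0.87 and 1.43 CPM in WT. Postn, a matricellular protein of fibroblasts, had 8.25 and 59.4 CPM in KO and 6.89 and 7.58 CPM in WT. Nid1, which bridges laminin and type IV collagen, had 3.37 and 34.8 CPM in KO, against 2.31 and 2.61 CPM in WT. Ddr2, a collagen receptor of mesenchymal cells, had 0.58 and 6.04 CPM in KO and 0.34 and 0.21 CPM in WT. Hspg2, the heparan sulfate proteoglycan perlecan, did not share this pattern, with 29.1 and 37.1 CPM in KO and 7.47 and 12.9 CPM in WT (log2 fold change 1.70, SE 0.30, edgeR adjusted p = 0.0557).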
